A study of Mus musculus with 8 samples.

Results

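The cytoplasmic ribosomal protein genes of mouse medullary thymic epithelial cells (mTECs) were examined in 4 sorted mTEC subsets. The members were chosen by name alone: protein-coding genes whose symbol is Rps or Rpl followed by a number or letter code, with pseudogenes left out. The table held 77 such genes of 25466 genes in all, 30 of the small (40S) subunit and 47 of the large (60S) subunit, spread over 19 chromosomes. The annotation names 80 such genes, and Rps12, Rpl10l and Rpl39l had no row of their own and were not analysed here.

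All cells came from the thymus of wild-type BL6N6 mice of 4 to 6 weeks, and no subset carried a transgene, deletion or treatment. The cells were sorted as CD45neg Epcampos CDR1neg mTECs by 2 surface proteins, Tspan8 and MHC class II. Tspan8, a tetraspanin, served in the study as an example of a tissue-restricted antigen. The subsets were Tspan8negMHCIIlo, Tspan8negMHCIIhi, Tspan8posMHCIIhi and Tspan8posMHCIIlo, each with 2 libraries given as biological replicates, and how many mice fed each library was not stated in the sources used here.

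A ribosome is built from ribosomal RNA and one copy of most ribosomal proteins, with the acidic stalk proteins present in several copies. The messenger RNAs of these proteins are short and abundant, and most open with a C followed by an unbroken stretch of C and T bases, the 5′ terminal oligopyrimidine tract, through which Larp1 and mTORC1 control their translation. In the thymus, mTECs transcribe a great many genes of other tissues in small fractions of cells and pass through immature and mature stages that differ in MHC class II.

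Libraries held 1941518 to 7783841 estimated counts, and the smallest was Tspan8posMHCIIlo replicate 1. Tspan8 itself, the gene behind the sort, lay between 3.64 and 14.6 counts per 1000000 (CPM, scaled by edgeR's trimmed mean of M-values, TMM) in the 4 Tspan8neg libraries and between 346 and 403 CPM in the 4 Tspan8pos libraries, as labelled. H2-Ab1, an MHC class II chain, was at 1690 to 2070 CPM in Tspan8negMHCIIlo and at 487 to 516 CPM in Tspan8posMHCIIlo, below the 2420 to 5080 CPM of the MHCIIhi libraries. Epcam and Krt8, epithelial markers, were detected in every library. Thymocyte markers (Ptprc, Cd3e, Cd3g, Lck, Rag1, Cd4, Cd8a and Cd8b1, all 8 above 0 in every library) summed to 412 and 1140 CPM in Tspan8negMHCIIlo, 69.2 and 146 in Tspan8negMHCIIhi, 75.8 and 112 in Tspan8posMHCIIhi and 125 and 220 in Tspan8posMHCIIlo. In bulk RNA, fewer cells of a type and less RNA per cell cannot be told apart.

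Start-site sequence is shown for selected members, because the tract at the start of the RNA is the feature this gene family is known for. Where a member had several annotated starts, one with the tract was shown in preference. The lines thus do not show how common the tract is. Each line gives 30 bases of the sense strand, 10 before and 20 from a RefSeq start on GRCm38.p6, with the tract in capitals where the first base was a C followed by at least 4 C or T. Rps18 (chr17:33955646-33955675, minus strand), Rps15a (chr7:118116128-118116157, minus), Rps6 (chr4:86857348-86857377, minus), Rpl38 (chr11:114668570-114668599, plus), Rplp2 (chr7:141447641-141447670, plus) and Rps27 (chr3:90213629-90213658, minus) held such a tract. Rps4x (chrX:102189372-102189401, minus), Rpsa (chr9:120127756-120127785, plus) and Rps27l (chr9:66946076-66946105, plus) did not at the annotated start.
Rps18: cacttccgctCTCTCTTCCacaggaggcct
Rps15a: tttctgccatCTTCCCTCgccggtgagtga
Rps6: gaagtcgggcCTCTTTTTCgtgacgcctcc
Rpl38: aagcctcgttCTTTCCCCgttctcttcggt
Rplp2: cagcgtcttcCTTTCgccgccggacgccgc
Rps27: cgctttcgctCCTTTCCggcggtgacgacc
Rps4x: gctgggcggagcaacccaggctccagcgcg
Rpsa: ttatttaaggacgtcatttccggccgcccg
Rps27l: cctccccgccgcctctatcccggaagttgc

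RefSeq promoters (250 bases before to 50 after a start) were found for 57 of the 77 members, 69 promoters in all. A C followed by at least 4 C or T lay exactly at the start in 18.8% of them and in 2.5% of all 32817 promoters. A run of at least 8 C or T between 20 bases before and 50 after the start was present in 69.6%, against 25.4% of all promoters. CCGGAAG, the core that Ets-family factors such as Gabpa bind, was found on either strand in 36.2% against 8.86%. CTCGCGAG was present in 11.6% against 0.92%, and TATAAA in 8.7% against 13.6%. Members with and without a tract exactly at the annotated start had close medians. The split goes by the annotated base alone, so it cannot sort members by the tract that their RNA carries. In the 13 members with a tract at the annotated start the median log2 fold change of Tspan8posMHCIIlo against Tspan8negMHCIIlo was -0.88, and in the other 43 tested members with a promoter it was -0.82.

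Ribosomal protein transcripts made up a larger part of the RNA in Tspan8neg than in Tspan8pos mTECs. The members held 3.09% and 3.51% of all counts in the Tspan8negMHCIIlo libraries and 2.88% and 2.95% in Tspan8negMHCIIhi. They held 1.65% and 1.7% in Tspan8posMHCIIhi and 1.74% and 1.55% in Tspan8posMHCIIlo. All 4 Tspan8neg libraries lay above all 4 Tspan8pos libraries, and the range of Tspan8posMHCIIhi lay inside that of Tspan8posMHCIIlo. On the TMM scale the summed level was 31180 ± 1750 CPM in Tspan8negMHCIIlo, 27330 ± 250 in Tspan8negMHCIIhi, 17780 ± 78.5 in Tspan8posMHCIIhi and 17450 ± 1460 in Tspan8posMHCIIlo (mean ± SD, n = 2 each). The mean of Tspan8negMHCIIlo was 1.79 times that of Tspan8posMHCIIlo, and the mean of Tspan8negMHCIIhi was 1.54 times that of Tspan8posMHCIIhi. Tspan8negMHCIIlo lay 1.14 times above Tspan8negMHCIIhi, and Tspan8posMHCIIhi 1.02 times above Tspan8posMHCIIlo, a difference within the replicate SD of Tspan8posMHCIIlo and beyond that of Tspan8posMHCIIhi. These sums are described without a test.

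**Figure D1:**
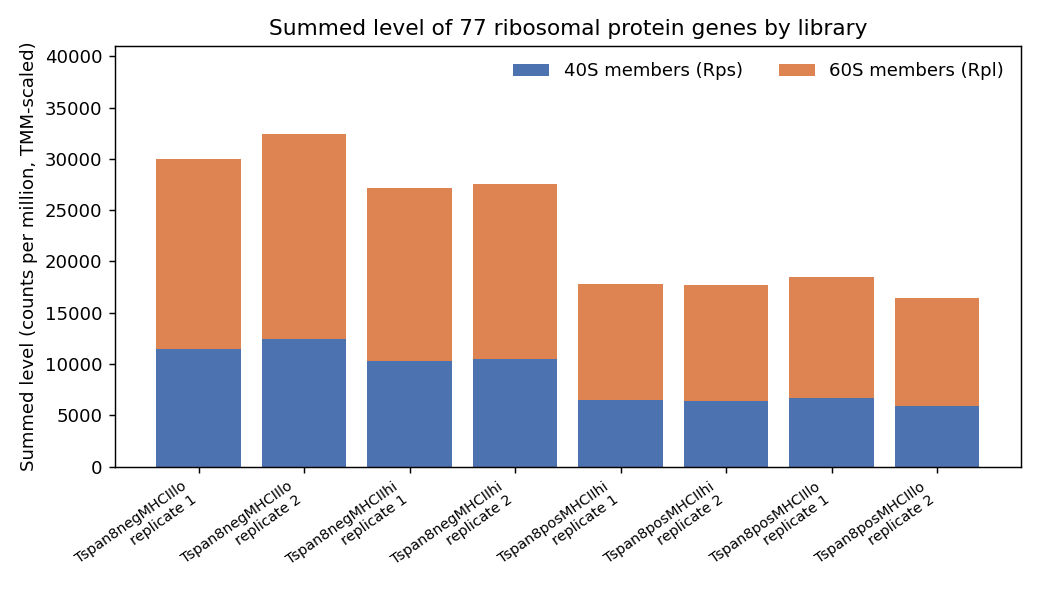
Summed level of the 77 members in each of the 8 libraries, in TMM-scaled CPM, with 40S members (Rps) at the foot of each bar and 60S members (Rpl) above them. The 4 Tspan8neg libraries reach 27158 to 32420 and the 4 Tspan8pos libraries 16421 to 18482.

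The small and the large subunit followed the same order. Members of the 40S subunit summed to 11970 ± 711 CPM in Tspan8negMHCIIlo and 6332 ± 524 CPM in Tspan8posMHCIIlo, and those of the 60S subunit to 19210 ± 1040 and 11120 ± 933 CPM (mean ± SD, n = 2). The ratio of the 60S to the 40S sum was 1.6 to 1.63 in the Tspan8neg libraries and 1.74 to 1.76 in the Tspan8pos libraries, with no overlap. Without Rpl41 and Rps4x, left out after their values were seen, the ratio was 1.64 to 1.68 and 1.75 to 1.76.

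Single members ranged widely when levels were divided by transcript length (TPM, the share of each gene in the sum of counts per base over the table). Rpl41, which encodes the smallest ribosomal protein, was the highest with a mean of 2230, followed by Rplp1 of the stalk with 1540 and Rpl23a, a protein at the exit of the peptide tunnel, with 1460. The lowest were Rpl3l with 1.1, Rps27l with 119 and Rpl37 with 131, and the median of the tested members was 776. The 10 members with the most counts held 26.1% of the member counts. Rps20 was annotated with only 1 coding transcript, of 3706 bases, which makes its level per length uncertain.

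The comparison of Tspan8pos with Tspan8neg mTECs asked what differs between cells that do and do not display this antigen, first at low MHC class II. In the paper's putative sequence the subsets compared also differ in stage. In Tspan8posMHCIIlo, 69 of 76 tested members were lower than in Tspan8negMHCIIlo (edgeR quasi-likelihood test, adjusted p under 0.01 over 17006 genes), while 12.2% of all genes tested were called lower. No member was called higher by edgeR, where 15.8% of all genes were, nor at an unadjusted p under 0.05 or by DESeq2 (0 in each). The median log2 fold change of the members was -0.87, a ratio of 0.546, and that of all genes was -0.03. With the further demand of at least a 2-fold change, 16 members stayed lower, beside 9.34% of all genes. The call count rested in part on a single library: 31 members were called without Tspan8posMHCIIlo replicate 2, with a median of -0.77, and 63 to 71 when any other library was left out.

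At high MHC class II the direction was the same. In Tspan8posMHCIIhi, 42 of 76 members were lower than in Tspan8negMHCIIhi, beside 10% of all genes, and none was higher, beside 15.0%. At an unadjusted p under 0.05 the counts were 69 lower and 0 higher, and DESeq2 called 54 lower and 0 higher. Here and in the other comparisons, counts by DESeq2, at an unadjusted p or under other processing have no share of all genes beside them. The same holds for counts with a library left out. All of these are descriptions only. The 2-fold limit in the Tspan8 comparisons has its share given. The median was -0.59, a ratio of 0.666, against -0.03 over all genes. A fall of at least 2-fold was called for 1 member, Rps4x, beside 7.45% of all genes. Without Tspan8negMHCIIhi replicate 1 or 2 the count was 16 or 18, and without Tspan8posMHCIIhi replicate 1 or 2 it was 14 or 13, with medians from -0.59 to -0.56. Without Tspan8posMHCIIlo replicate 1 or 2 it was 38, and without a Tspan8negMHCIIlo library 56 or 55.

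The 2 Tspan8 comparisons share no library, though 1 fit estimated the spread for both. All 42 members called in the MHCIIhi comparison were also called in the MHCIIlo comparison, 27 were called in the latter alone, and 7 in neither. Of 76 members, 74 had a negative log2 fold change in both, and 70 had the more negative value at low MHC class II. These counts of overlap and sign have no share of all genes beside them and are descriptions only. In 71 of 76 members every Tspan8neg library exceeded every Tspan8pos library, beside 12.9% of all genes. The other 5 were Rps29, Rps27l, Rpl27, Rps27 and Rpl41, listed here after their values were seen.

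**Figure D2:**
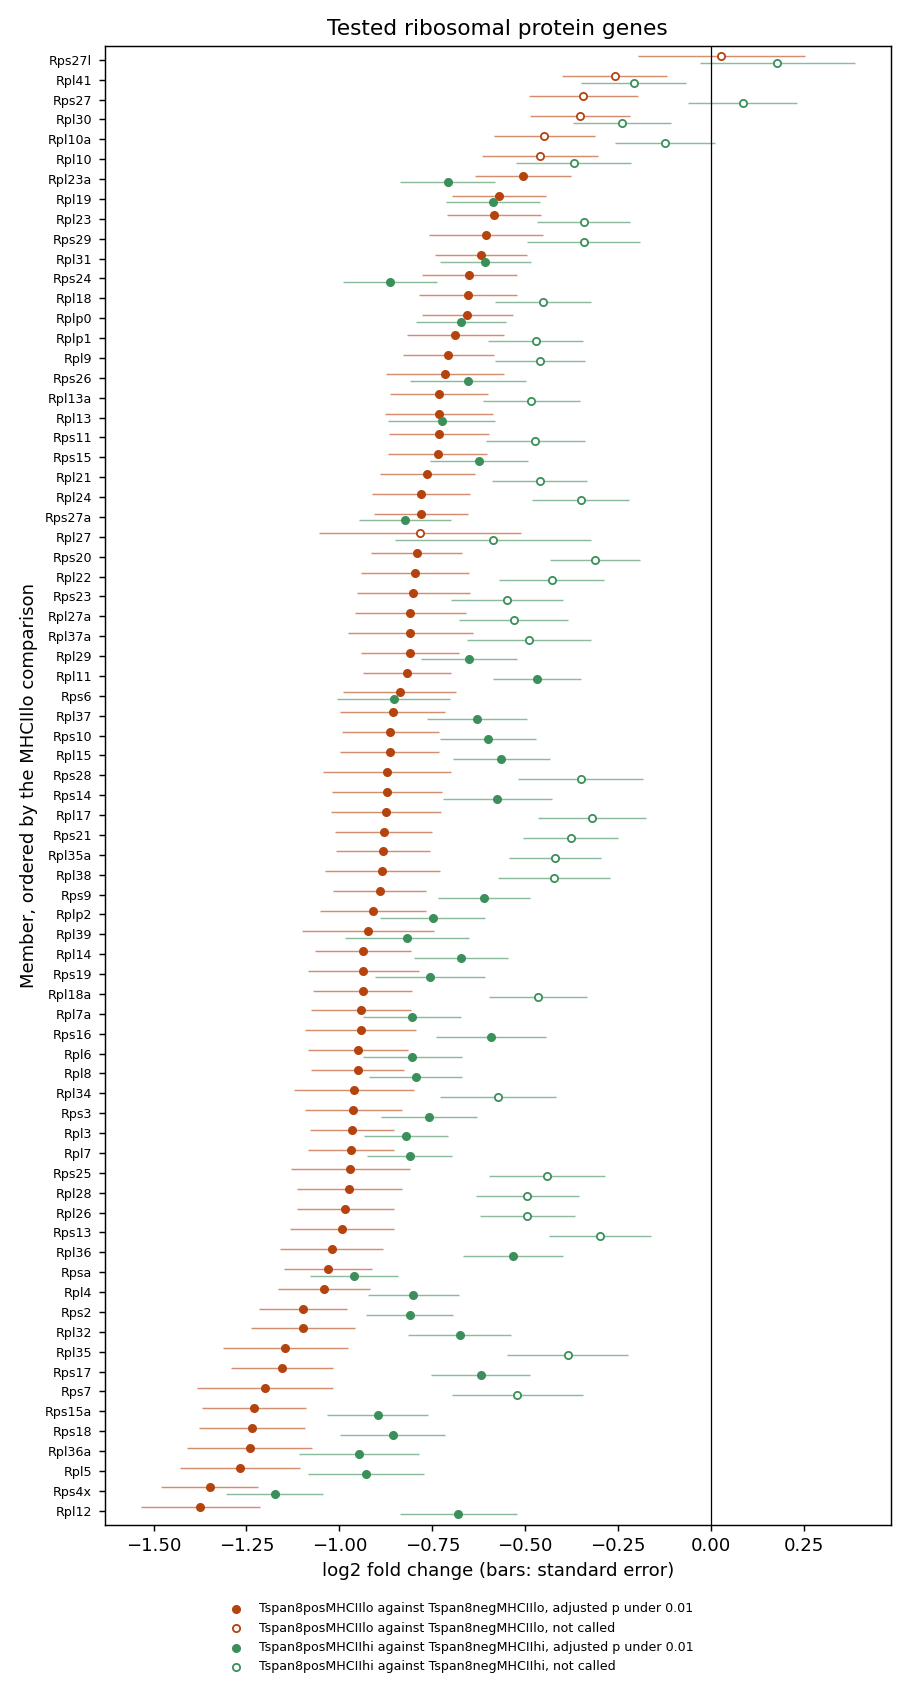
Log2 fold change with its standard error for 74 of the 76 tested members in the 2 Tspan8 comparisons, ordered by the MHCIIlo comparison, with filled points for an adjusted p under 0.01 (edgeR). In the MHCIIlo comparison 67 points are filled and in the MHCIIhi comparison 40, all to the left of 0, and Rps27l sits alone to the right of 0 in both.

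Among 40S members the largest and clearest difference was that of Rps4x, an X-linked protein of the small subunit body. It measured 675 and 663 CPM in Tspan8negMHCIIlo, 609 and 616 in Tspan8negMHCIIhi, 285 and 258 in Tspan8posMHCIIhi and 286 and 242 in Tspan8posMHCIIlo. The Tspan8neg and Tspan8pos libraries did not overlap. The log2 fold change was -1.35 ± 0.13 (SE) at low MHC class II (edgeR adjusted p = 1.44e-05) and -1.17 ± 0.13 at high MHC class II (edgeR adjusted p = 4.02e-05).

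Rpsa, which sits on the head of the small subunit and is also known as the laminin receptor, measured 772 and 852 CPM in Tspan8negMHCIIlo, 836 and 791 in Tspan8negMHCIIhi, 425 and 411 in Tspan8posMHCIIhi and 402 and 394 in Tspan8posMHCIIlo. Its level differed by Tspan8 and hardly by MHC class II. It fell to 0.489 times at low and 0.514 times at high MHC class II (edgeR adjusted p = 5.05e-05 and 8.83e-05). Rps2, at the channel where messenger RNA enters, measured 887 and 887 CPM in Tspan8negMHCIIlo against 433 and 397 in Tspan8posMHCIIlo, a ratio of 0.467. Rps15a, of the body, measured 216 and 217 CPM in Tspan8negMHCIIlo against 97.5 and 88 in Tspan8posMHCIIlo and fell to 0.427 times (edgeR adjusted p = 4.7e-05), and it is one of the genes with the start tract shown above. Each of these 3 genes was lower in both comparisons.

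Members with work beyond the ribosome followed the rest of the 40S subunit. Rps6, the substrate of the S6 kinases, measured 692 and 563 CPM in Tspan8negMHCIIlo, 675 and 627 in Tspan8negMHCIIhi, 390 and 329 in Tspan8posMHCIIhi and 382 and 322 in Tspan8posMHCIIlo. Its replicates varied more than those of Rps4x, yet the Tspan8neg and Tspan8pos libraries stayed apart, with ratios of 0.559 and 0.553. Rps19, which is mutated in Diamond-Blackfan anaemia, fell to 0.523 and 0.592 times, and Rps27a, made as a fusion with ubiquitin, to 0.582 and 0.565 times at low and high MHC class II. All 3 were called in both comparisons (edgeR adjusted p from 0.000384 to 0.00204). Over the whole 40S subunit, 28 of 30 members were lower at low and 19 of 30 at high MHC class II, with medians of -0.89 and -0.62.

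Among 60S members Rpl3, which reaches into the catalytic centre of the ribosome, measured 861 and 919 CPM in Tspan8negMHCIIlo, 825 and 818 in Tspan8negMHCIIhi, 459 and 472 in Tspan8posMHCIIhi and 453 and 459 in Tspan8posMHCIIlo. The 2 levels of the Tspan8 sort were plainly separated and the replicates close. Its log2 fold change was -0.97 ± 0.11 at low MHC class II (edgeR adjusted p = 6.24e-05) and -0.82 ± 0.11 at high MHC class II (edgeR adjusted p = 0.000211). Rpl5 and Rpl11 bind the 5S ribosomal RNA and, outside the ribosome, restrain Mdm2. Rpl5 measured 181 and 230 CPM in Tspan8negMHCIIlo, 187 and 180 in Tspan8negMHCIIhi, 94.9 and 97.6 in Tspan8posMHCIIhi and 95.4 and 77.6 in Tspan8posMHCIIlo. It fell to 0.415 and 0.525 times, and Rpl11 to 0.567 and 0.723 times (edgeR adjusted p at most 0.00904).

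Rpl22, which is needed for the development of alpha-beta T cells, and Rpl38, known for its part in the translation of Hox messenger RNAs in the mouse embryo, were called at low MHC class II only, and the difference between the comparisons passed the test for neither. Rpl22 had log2 fold changes of -0.80 and -0.43 (edgeR adjusted p = 0.00131 and 0.0341, interaction 0.283). Rpl38 had values of -0.89 and -0.42 (edgeR adjusted p = 0.000935 and 0.0459, interaction 0.196). Rpl23a, the third highest member per length, fell by 0.51 and 0.71 on the log2 scale, and Rpl37, the third lowest, fell by 0.86 and 0.63. Over the 60S subunit, 41 of 46 tested members were lower at low and 23 of 46 at high MHC class II, with medians of -0.86 and -0.55.

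The stalk of the large subunit, built from Rplp0 and the acidic proteins Rplp1 and Rplp2, recruits the elongation factors. Rplp0 measured 1017 and 1074 in Tspan8negMHCIIlo, 1080 and 1134 in Tspan8negMHCIIhi, 676 and 713 in Tspan8posMHCIIhi and 715 and 614 CPM in Tspan8posMHCIIlo. It did not overlap between Tspan8neg and Tspan8pos. Its log2 fold changes were -0.66 and -0.67, and those of Rplp2 were -0.91 and -0.75, with both genes called in both comparisons. Rplp1 fell by 0.69 on the log2 scale at low MHC class II and had a value of -0.47 at high MHC class II (edgeR adjusted p = 0.00152 and 0.0136).

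**Figure D3:**
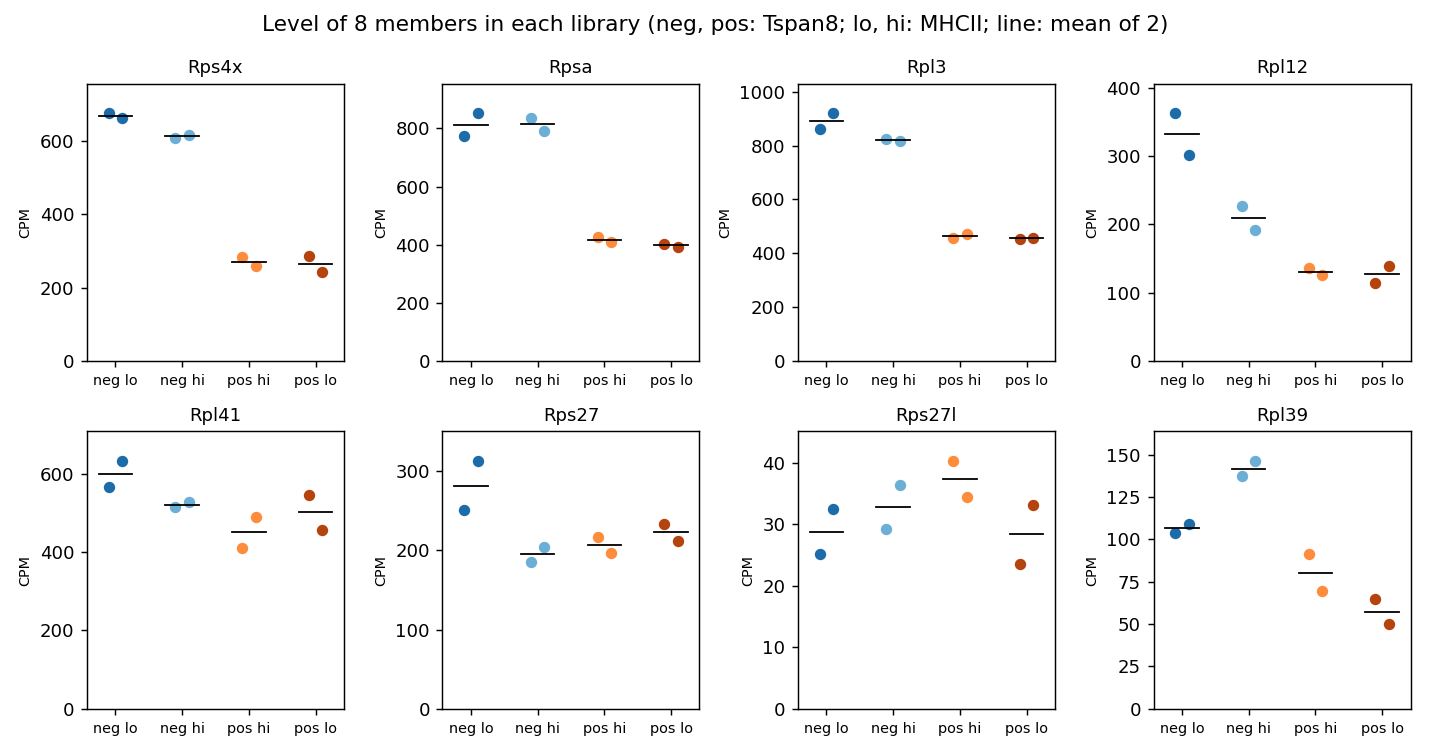
Level of 8 members in each library in TMM-scaled CPM, with a line at the mean of the 2 libraries of a subset. Rps4x, Rpsa and Rpl3 split by Tspan8, Rpl12 is also lower in Tspan8negMHCIIhi than in Tspan8negMHCIIlo, Rpl41, Rps27 and Rps27l overlap between Tspan8neg and Tspan8pos, and Rpl39 is highest in Tspan8negMHCIIhi.

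The members that were not called in either comparison were Rpl27, Rpl10, Rpl10a, Rpl30, Rps27, Rpl41 and Rps27l. Rpl41 measured 565 and 632 CPM in Tspan8negMHCIIlo, 514 and 527 in Tspan8negMHCIIhi, 411 and 490 in Tspan8posMHCIIhi and 546 and 456 in Tspan8posMHCIIlo. The ranges overlapped, and its log2 fold changes were -0.26 ± 0.14 and -0.21 ± 0.14 (edgeR adjusted p = 0.168 and 0.269). Rpl10, which completes the large subunit late in its assembly, had values of -0.46 ± 0.16 and -0.37 ± 0.15 (edgeR adjusted p = 0.0361 and 0.0844).

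Some ribosomal proteins exist as diverged gene copies. Rps27, a zinc-finger protein of the small subunit, measured 251 and 313 CPM in Tspan8negMHCIIlo, 185 and 205 in Tspan8negMHCIIhi, 217 and 197 in Tspan8posMHCIIhi and 233 and 212 in Tspan8posMHCIIlo. Its copy Rps27l, known as a p53 target, measured 25.2 and 32.4, 29.2 and 36.4, 40.3 and 34.4, and 23.6 and 33.2 CPM in the same order. Neither gene separated the subsets by Tspan8. Their log2 fold changes were -0.34 ± 0.15 and 0.09 ± 0.15 for Rps27 and 0.03 ± 0.22 and 0.18 ± 0.21 for Rps27l, none called. Per length, Rps27 stood 10.4 times above Rps27l over all libraries.

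Other copies differed in level. Rpl3l, a copy of Rpl3 known from striated muscle, had 21 counts over all 8 libraries, at most 12 in a library and 0 in 2 of them, and did not pass the filter on low counts. It was the only member not tested. Rpl39, which lines the peptide tunnel, measured 104 and 109 CPM in Tspan8negMHCIIlo, 137 and 146 in Tspan8negMHCIIhi, 91.3 and 69.5 in Tspan8posMHCIIhi and 64.7 and 50.1 in Tspan8posMHCIIlo. It was lower in both Tspan8 comparisons, with log2 fold changes of -0.92 ± 0.18 and -0.82 ± 0.17 (edgeR adjusted p = 0.00174 and 0.00275). Rps4l is annotated as a pseudogene and so was no member. It had 140 to 468 counts, and its levels of 43.9 to 76.7 CPM overlapped between Tspan8neg and Tspan8pos.

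Rps12 itself had no row, but Rps12-ps3 did. This gene is annotated as protein-coding, and its transcript of 494 bases matched an Rps12 transcript at 100% identity over its whole length, so reads of either cannot be told apart. It measured 471 and 479 CPM in Tspan8negMHCIIlo, 441 and 484 in Tspan8negMHCIIhi, 225 and 242 in Tspan8posMHCIIhi and 202 and 177 in Tspan8posMHCIIlo. The row thus had the Tspan8 split of the members, with log2 fold changes of -1.33 ± 0.13 and -0.99 ± 0.13 (edgeR adjusted p = 1.54e-05 and 0.000135).

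A second fit asked which members changed by more or less than the family as a whole, by scaling each library to its summed member counts. On this scale Rpl41 and Rps27l were higher in Tspan8posMHCIIlo than in Tspan8negMHCIIlo (log2 fold change relative to the pool 0.58 ± 0.14 and 0.90 ± 0.24, edgeR adjusted p = 0.0048 and 0.00693), and Rps4x was lower (-0.51 ± 0.14, edgeR adjusted p = 0.00831). These are 2 and 1 of 76 members, where 41.4% and 3.75% of all genes were called higher and lower relative to the pool. In Tspan8posMHCIIhi against Tspan8negMHCIIhi, Rps27 was higher (0.71 ± 0.15, edgeR adjusted p = 0.00195) and Rps4x lower (-0.55 ± 0.14, edgeR adjusted p = 0.00614), 1 member each way beside 33.8% and 3.34% of all genes. Rpl41 took 1.89% to 1.95% of the member counts in Tspan8neg libraries and 2.31% to 2.95% in Tspan8pos libraries. These 5 calls, of 4 members, depended on single libraries. Over both Tspan8 and both MHC class II comparisons, 0 members were called without Tspan8negMHCIIhi replicate 1 or without replicate 2, 1 without Tspan8posMHCIIhi replicate 1 and 2 without Tspan8posMHCIIhi replicate 2.

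The MHC class II comparison asked what changes between low and high MHC class II within each Tspan8 state. Between Tspan8negMHCIIhi and Tspan8negMHCIIlo, 2 of 76 members were lower and none higher, beside 13.9% and 15.5% of all genes. At an unadjusted p under 0.05 the counts were 29 lower and 1 higher, and DESeq2 called 2 lower and 0 higher. The median log2 fold change was -0.25, against -0.04 over all genes. The called members were Rpl12, at the base of the stalk, and Rpl36. Rpl12 measured 362 and 301 CPM in Tspan8negMHCIIlo and 227 and 192 in Tspan8negMHCIIhi, with a log2 fold change of -0.66 ± 0.16 (edgeR adjusted p = 0.00554). Rpl36 measured 172 and 194 against 115 and 112 CPM, with -0.69 ± 0.13 (edgeR adjusted p = 0.00175). For both genes the 2 subsets did not overlap. The 2 calls were lost without either Tspan8negMHCIIhi library (0 in each case), the count was 1 without either Tspan8posMHCIIhi library, and 5 were made without Tspan8negMHCIIlo replicate 1. With an offset for GC content and transcript length the count was 22 and the median -0.40.

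Both genes were lower still in the Tspan8pos cells. Rpl12 measured 136 and 125 CPM in Tspan8posMHCIIhi and 114 and 140 in Tspan8posMHCIIlo, and had the most negative log2 fold change of all members at low MHC class II, -1.37 ± 0.16 (edgeR adjusted p = 5.62e-05). Rpl36 measured 75.4 and 81.4 CPM in Tspan8posMHCIIhi and 95.9 and 85.4 in Tspan8posMHCIIlo, and fell to 0.493 and 0.691 times in the Tspan8 comparisons (edgeR adjusted p = 0.000155 and 0.0095).

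Between Tspan8posMHCIIhi and Tspan8posMHCIIlo no member was called in either direction by edgeR or DESeq2, beside 5.47% of all genes higher and 3.59% lower. At an unadjusted p under 0.05, 3 members were higher and 1 lower. The member median was 0.05, against 0.01 over all genes, with a range of members from -0.41 to 0.52. With the offset for GC content and length the member median was -0.10. The smallest adjusted p was that of Rpl39 (log2 fold change 0.52 ± 0.18, edgeR adjusted p = 0.0704).

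Whether the Tspan8 difference itself varied with MHC class II was tested as an interaction. No member was called in either direction by edgeR or DESeq2, beside 2.39% of all genes higher and 2.3% lower. At an unadjusted p under 0.05 the counts were 16 lower and 0 higher, with no share of all genes to set beside them. The median interaction was -0.26, against -0.05 over all genes, and 70 of 76 values were negative. Rps13, named after its value was seen, had the smallest adjusted p (-0.69, edgeR adjusted p = 0.0418). Sign counts and subset orders here have no share of all genes beside them and are descriptions only. Ordered by subset means, Tspan8negMHCIIlo was the highest subset for 65 of 76 members, Tspan8negMHCIIhi for 10 and Tspan8posMHCIIhi for 1, Rps27l. The lowest subset was Tspan8posMHCIIlo for 50 members, Tspan8posMHCIIhi for 25 and Tspan8negMHCIIhi for 1. The order of the last 2 subsets was thus not separated by the test in any member.

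**Figure D4:**
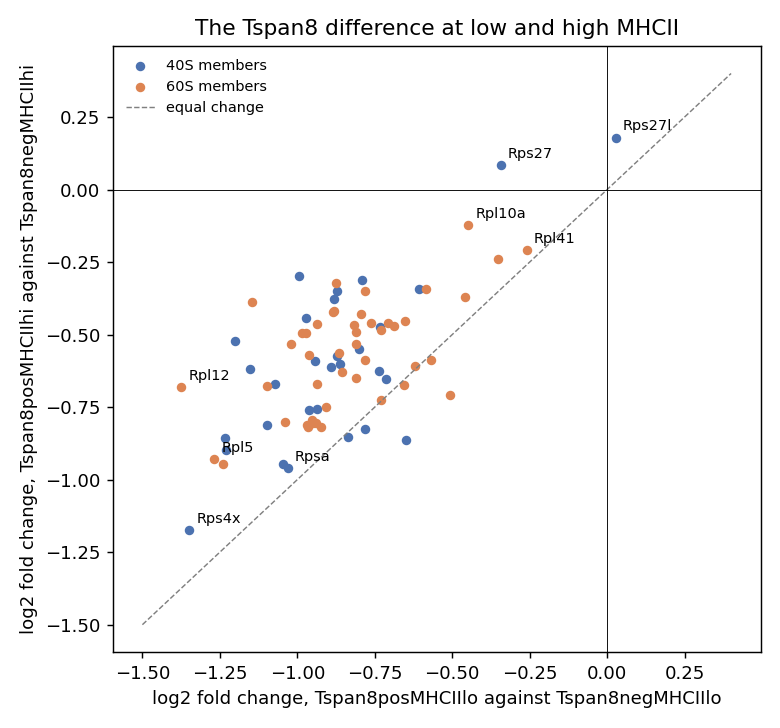
Log2 fold change of each tested member in the MHCIIhi comparison (vertical) against the MHCIIlo comparison (horizontal), with 40S and 60S members in different colours and a dashed line at equal change. Most points lie above the line, 70 of 76 with the more negative value at low MHC class II, and Rps27l is the only member above 0 on both axes.

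The members shared traits that the choice by name did not use. Their transcripts were short, with a median of 681 bases against 2064 over all genes with a symbol. Across the 76 members the Spearman correlation of the log2 fold change with transcript length was -0.24 at low and -0.3 at high MHC class II, that with GC content was -0.01 at low MHC class II, and that with mean CPM 0.14 and -0.29, as descriptions over genes measured in the same libraries. Members without an exon overlap with another gene (55 tested) had medians of -0.88 and -0.59 and those with one (21) of -0.86 and -0.56. Pseudogenes with at least 90% sequence identity were found for 55 members, with medians of -0.84 and -0.59, and the 21 tested members without any had -0.94 and -0.6.

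Structural proteins of the ribosome, or close copies of them, that the naming rule left out were tested alongside. Of 7, none was higher, beside 15.8% of all genes at low and 15.0% at high MHC class II. At low MHC class II 2 were lower and at high 1, beside 12.2% and 10%. Rack1, a scaffold protein on the small subunit, measured 727 ± 52.7 CPM in Tspan8negMHCIIlo and 353 ± 26.6 in Tspan8posMHCIIlo (mean ± SD, n = 2) and fell by 1.05 and 0.90 on the log2 scale (edgeR adjusted p = 6.94e-05 and 0.000209). Rps3a1 fell by 0.54 at low MHC class II (edgeR adjusted p = 0.00317). Fau, whose product is made as a fusion with a ubiquitin-like protein, had log2 values of -0.16 and -0.18, not called.

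Genes that build ribosomes were lower in part. Of 69 tested ribosome biogenesis genes, 29 (42%) were lower and 1 higher at low MHC class II (median -0.74), beside 12.2% and 15.8% of all genes. At high MHC class II 13 (18.8%) were lower and 1 higher (median -0.48), beside 10% and 15.0%. Npm1, a nucleolar chaperone, fell by 1.34 and 1.35, Ncl (nucleolin) by 1.02 and 1.08, and Fbl (fibrillarin), the methyltransferase of box C/D particles, by 1.57 and 1.03 on the log2 scale. The gene that rose in both was Sbds, a late 60S maturation factor. Between Tspan8negMHCIIhi and Tspan8negMHCIIlo, 11 (15.9%) were lower and none higher (median -0.39), a share near the 13.9% of all genes.

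A list of translation factors and some other genes, among them Hnrnpa1 and Nap1l1, was lower in part as well. Of its 38 genes, 12 (31.6%) were lower and 1 higher at low MHC class II, beside 12.2% and 15.8% of all genes. At high MHC class II 11 (28.9%) were lower and 1 higher, beside 10% and 15.0%. The medians were -0.39 and -0.29. Eef1a1, which carries aminoacyl-tRNA to the ribosome and whose RNA also opens with a pyrimidine tract, fell by 0.83 and 0.86, and Hnrnpa1, an RNA-binding protein of the same RNA class, by 1.38 and 1.10 on the log2 scale. Eif1, which guards start codon choice, was the gene that rose at low MHC class II, by 0.64. Of 78 mitochondrial ribosomal proteins, 2 (2.56%) were lower at low and 2 (2.56%) at high MHC class II, and none was higher in either. These shares were below those of all genes. The medians of the mitochondrial ribosomal proteins were -0.16 and -0.05.

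Of 27 regulators of ribosomal protein genes and their translation, 3 (11.1%) were higher and 2 (7.41%) lower at low MHC class II, and 6 (22.2%) were higher and 2 (7.41%) lower at high MHC class II. All genes gave 15.8% and 12.2%, and 15.0% and 10%, so these shares were near the background. Mxd1 and Mxi1, antagonists of Myc, rose by 1.83 and 1.35 at low and by 1.22 and 1.97 at high MHC class II on the log2 scale, and Max by 0.87 and 1.26. Mxd4 rose by 0.53 at high MHC class II only (edgeR adjusted p = 0.00898), and Mga had values of -0.31 and -0.32, not called. Maf1 had a value of -0.925 at low MHC class II (edgeR adjusted p = 0.000516). Gabpb1 had -1.08 at high MHC class II (edgeR adjusted p = 0.000197). Neither was called in the other Tspan8 comparison. Myc fell by 0.69 at low MHC class II (edgeR adjusted p = 0.00641) and had a value of -0.07 at high MHC class II (edgeR adjusted p = 0.771). Larp1 and Mtor had values between -0.20 and 0.00 in the Tspan8 comparisons, not called. Of other genes of the mTORC1 pathway, at high MHC class II the kinase gene Rps6kb2 rose by 0.99 and the inhibitor gene Tsc2 by 0.62, and Rptor, a subunit of the complex, fell by 0.54 on the log2 scale (edgeR adjusted p = 0.000481, 0.00518 and 0.0076). None of these 3 was called at low MHC class II.

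Other groups moved with the Tspan8 difference. All 16 proliferation genes were lower at low and 15 at high MHC class II, beside 12.2% and 10% of all genes. The medians of the 16 were -2.66 and -1.83, and Mki67 fell by 2.83 and 2.21 on the log2 scale. The summed level of the proliferation genes was 1130 and 1620 CPM in Tspan8negMHCIIlo and 1070 and 974 in Tspan8negMHCIIhi. It was 320 and 346 in Tspan8posMHCIIhi and 244 and 327 in Tspan8posMHCIIlo. The part of proliferating cells in the member difference was not tested. Thymocyte markers also differed between the MHCIIlo subsets, 3 of 8 called lower in Tspan8posMHCIIlo, and none of the 8 was called between the MHCIIhi subsets. Fibroblast markers (Col1a1, Col1a2, Pdgfra and Dcn, all 4 above 0 in every library) summed to 94.1 and 165 CPM in Tspan8negMHCIIlo, 123 and 133 in Tspan8negMHCIIhi, 43.5 and 40.3 in Tspan8posMHCIIhi and 59.2 and 67.1 in Tspan8posMHCIIlo. The sums did not overlap between Tspan8neg and Tspan8pos, but each of the 4 genes alone did. In each Tspan8 comparison 1 of the 4 was called lower. Transcripts of the mitochondrial genome held 1.61% and 1.54% of the counts in Tspan8negMHCIIlo and 0.556% to 0.741% in the other 6 libraries. The part of each of these in the member difference was not tested.

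**Figure D5:**
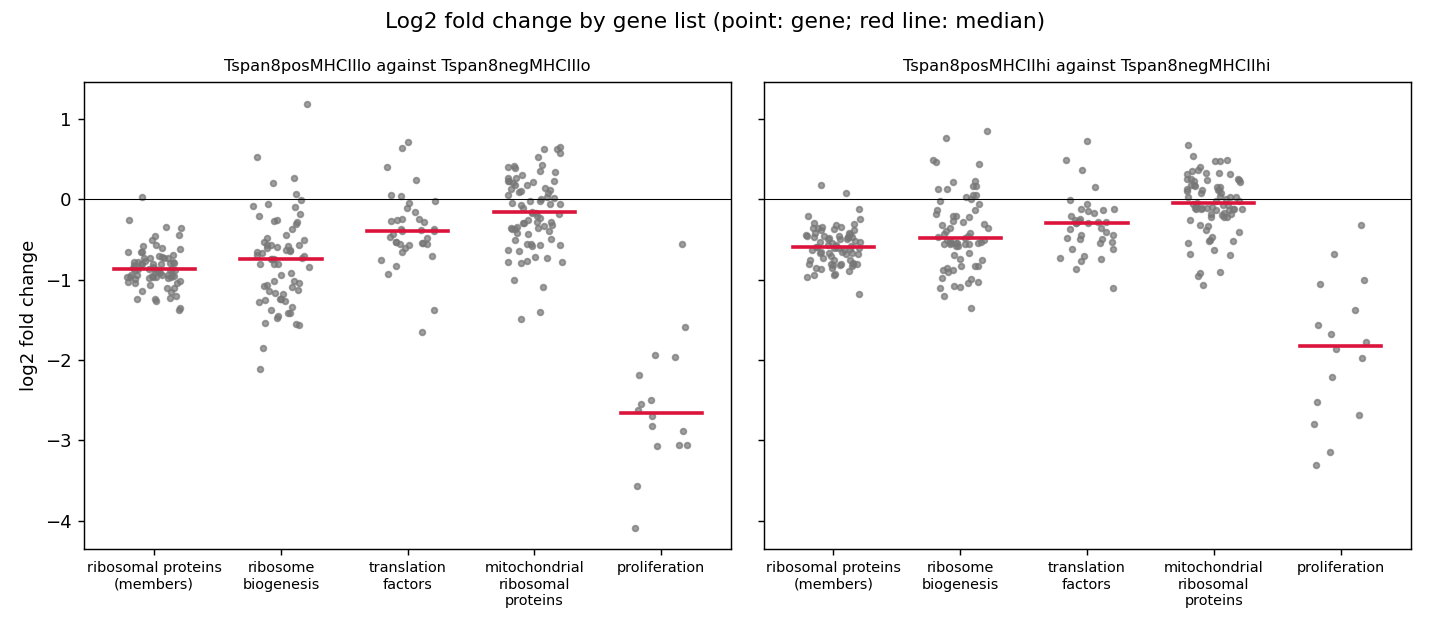
Log2 fold change of each tested gene by list in the MHCIIlo (left) and MHCIIhi (right) Tspan8 comparison, with a red line at the median of the list. The members lie in a narrow band around medians of -0.87 and -0.59, mitochondrial ribosomal proteins around -0.16 and -0.05, and proliferation genes around -2.66 and -1.83.

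Scaling set the size of these values more than their direction. With library totals in place of TMM factors the median of all genes shifted to -0.20 and -0.21 and that of the members to -1.04 and -0.76. A single factor per library shifts all genes alike. The distance between members and all genes, -0.84 and -0.56, was thus fixed in advance and tests nothing. With the offset for GC content and length, which differs by gene, that distance was -0.86 and -0.53. The direction of the member median was negative in both Tspan8 comparisons under TMM, TMM without these genes, DESeq2 size factors, library totals and the offset for GC content and length. Spike-in counts were not used here, so an absolute amount per cell was not measured.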

How the data were processed

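RNA of FACS-isolated mTECs was sequenced in 8 libraries. The deposited values are expected counts per gene that the authors made with Salmon 1.8.0 against the mouse transcriptome (mm10), one column per library. They were rounded to whole numbers. The study's methods describe pre-amplified, tagmented cDNA and the labels a stranded kit, so antisense overlap is unsettled (18 members). Symbols came from GENCODE (99.49% of IDs). Genes passing edgeR's filterByExpr (17006) were fitted over all 4 subsets with edgeR 4.0.16 (TMM, quasi-likelihood, Benjamini-Hochberg, adjusted p under 0.01), with DESeq2 1.42.0 on R 4.3.3 as an alternative. The study's 2-fold limit was an alternative. Replicates differed beyond counting noise, with a biological variation of 15.5%, and p-values measure only the spread between these libraries. Members named were those with the 4 smallest adjusted p per direction, the 3 highest and lowest per length, untested members, diverged copies, stalk proteins, those with other known work and those called relative to the pool. Some genes that this rule names are not reported here. Members and lists were chosen with earlier results of these data known. B cell, myeloid, cortical epithelial and endothelial markers summed to 19.3 to 51, 58.2 to 484, 72.9 to 403 and 13 to 106 CPM per library. At both MHC class II levels the cortical and endothelial sums were higher in Tspan8neg than in Tspan8pos libraries, and the myeloid sums were lower. The myeloid markers did not move together. At both levels Itgam and Cd68 were lower in Tspan8neg and Itgax was higher. At high MHC class II Itgam had 13.7 and 22.5 CPM in Tspan8neg against 144 and 164 in Tspan8pos. Lyz2 went the other way there, with 279 and 330 against 244 and 236 CPM. At low MHC class II the cortical sums were 129 and 283 against 72.9 and 99.6 CPM, and the myeloid sums 58.2 and 122 against 219 and 218 CPM. The part of these in the member difference was not tested. Pseudogenes were matched with BLAST+ 2.17.0.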

Additional observations from a re-analysis of the deposited data

How the results depend on the processing

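No member was called higher in any comparison under any alternative, and no value of a named member reversed: of 817 values over the alternatives 732 kept their call and 85 lost it. Members called lower in Tspan8posMHCIIlo numbered 69, 16 with a 2-fold limit, and 31 to 71 when a library was left out. In Tspan8posMHCIIhi they numbered 42, 1 with that limit, and 13 to 56. In Tspan8negMHCIIhi against Tspan8negMHCIIlo they numbered 2, and 1 with DESeq2 size factors, 0 with only the 4 libraries compared, 1 with sequence-matched pseudogenes added, 22 with the GC content and length offset, 11 at an adjusted p under 0.05, 0 with the 2-fold limit and 0 to 5 when a library was left out. The interaction gave 1 at an adjusted p under 0.05. Members apart from the pool numbered 4, and 0 to 6 when a library was left out.

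The summed level moved by more than its replicate SD, without a change in the order of Tspan8neg over Tspan8pos. With library totals it was 33024 in Tspan8negMHCIIlo, 29125 in Tspan8negMHCIIhi and 16749 in Tspan8posMHCIIhi. With sequence-matched pseudogenes added it was 33267, 29588 and 18937. In Tspan8negMHCIIhi and Tspan8posMHCIIhi it was 28440 and 17701 with DESeq2 size factors, 28265 and 18182 with pseudogenes of the same symbol added, and 28017 and 17610 after thinning. The cause of these shifts was not tested. The sequence-matched pseudogenes and the alternatives of the pool were chosen after seeing the data.

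Whether same-numbered replicates shared mice or a preparation was not stated in the sources used here, and they were treated as unpaired. Their deviations over all tested genes correlated at 0.00402 to 0.0924. This cannot decide the question, because small correlations over many noisy genes do not exclude a shared preparation. Summed thymocyte markers were higher in replicate 2 than in replicate 1 in every subset. With the replicate number as a block, 69, 51 and 3 members were called lower in the first 3 comparisons and 5 stood apart from the pool. With 2 libraries a subset, a difference that was not called may be one the design could not detect.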
